A study of Homo sapiens and Mus musculus with 19 samples.

Results

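The checkpoint ligands and immune-evasion surface genes described here are CD274, PDCD1LG2, CD276, CD47, LGALS9, ENTPD1, NT5E and IDO1, followed in lung cancer cells in which NF-kB signalling had been raised or blocked. They were chosen by name, with earlier results of these data known. Each was read from the brightest of the probe sets that carry its symbol alone. All 8 genes were found among the 19775 human genes with such a probe set, on 24 of 41097 probe sets, and their 8 mouse counterparts, matched by symbol, were found among 18194 mouse genes. The human cells were of 5 established lines from lung tumours (A549, H23, HCC827, PC9 and the bronchioloalveolar line H358), with 3 arrays per line. The 4 mouse arrays came from Lewis lung carcinoma (LLC) cells titled LLC-kB OVA, a suffix that the labels do not explain. Every array held RNA from cells that had taken up a retrovirus and had been sorted for its GFP marker. MiG is the empty retrovirus and the control. IkB_SR is MiG carrying the super-repressor form of IkB alpha, whose regulatory serines are changed to alanine. IKKb is MiG carrying activated IKK beta, whose activation-loop serines are changed to glutamate. Each human line had 1 array per vector, so the 5 lines served as the replicates, and LLC had 2 arrays each of MiG and IKKb and no IkB_SR array.

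NF-kB is held in the cytoplasm by IkB proteins until the IKK kinase marks them for degradation, so the super-repressor blocks the pathway and the activated kinase drives it. Tumour cells can restrain immune attack by displaying ligands for inhibitory receptors on T cells, by displaying CD47, which tells macrophages not to engulf them, by turning extracellular ATP into adenosine, and by breaking down tryptophan. In lung cancer the PD-1 ligand encoded by CD274 is the best known of these molecules and the target of approved antibodies.

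The measure was the MAS5 signal, a linear probe-set brightness, deposited with every array at a trimmed mean of 500. Genes above the 40th percentile of their array (28.7 to 45.0 across the human set) on 5 or more of the human arrays, or on 2 or more of the mouse arrays, were tested. These were 15212 human and 12549 mouse genes. Differences were taken on log2(signal + 16), a scale that understates changes of dim genes. Values after ± are standard errors (SE) from the limma package. For the human lines these pool the spread over all 3 vectors. In each fit limma draws a gene's spread toward that of genes of like intensity. Of the members, 7 of 8 human genes and 8 of 8 mouse genes were tested, PDCD1LG2 being above the percentile on only 4 of 15 human arrays. NFKBIA, the gene delivered by the super-repressor, read 1.60 to 7.08 times the MiG signal on the IkB_SR arrays of A549, H358, HCC827 and PC9, but 0.782 times on the array labelled H23 IkB_SR, so results are also given without that array. NFKBIA is also an NF-kB target, and on the IKKb arrays it read 1.07 to 3.91 times MiG. In H358 the ratios were 4.07 with IkB_SR and 3.91 with IKKb, so NFKBIA does not tell those arrays apart. IKBKB read 0.794 to 1.03 times MiG on the human IKKb arrays and Ikbkb 1.14 and 1.26 times in LLC. Whether those probes lie within the transferred sequence is not given in the sources used here. The H358 IKKb array stood apart from the other H358 arrays in the Dap spike-in control (4376 against 1128 and 1103) and in the ratio of 3′ to 5′ actin signal (1.74 against 1.41 and 1.38). In PC9 the MiG array had a Dap signal of 2376, against 4047 with IkB_SR and 4354 with IKKb. Lines differed too, with Dap at 154 to 161 in A549 and 3385 to 3850 in H23. Differences between lines therefore cannot be told apart from differences in array handling. Epithelial markers were above the percentile on every array of the line for 8 of 9 genes in A549, 5 of 9 in H23 and 9 of 9 in H358, HCC827 and PC9. Of 10 leukocyte markers measured, none was above it on every array of PC9, while HCC827 had 1, H358 had 2, H23 had 4 and A549 had 5, and PTPRC, which marks leukocytes at large, was below it on 14 of 15 human arrays. Of 10 fibroblast and endothelial markers, 3 to 6 were above it on every array of a line, with COL1A1 and PECAM1 among them in all 5 lines.

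Most of the variation in 7 of the 8 genes lay between the lines. Between the 5 lines, 6 of 7 tested members differed by limma's moderated F-test at an adjusted p under 0.05, ENTPD1 being the exception, beside 13187 of all 15212 genes (86.7%). Cell line accounted for 98.6% of the sum of squares of CD274, 97.1% of CD276, 95.5% of NT5E and 94.6% of IDO1, against a median of 88.5% over all genes tested. The same share was 83.8% for LGALS9, 82.9% for CD47, 80.7% for PDCD1LG2 and 13.0% for ENTPD1. The vector accounted for 13.5% of the sum of squares of CD47, for 2.98% of that of NT5E and for 0.613% of that of CD274, where the median gene had 1.94%. In bulk RNA, fewer cells expressing a gene and less of its RNA per cell cannot be told apart.

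**Figure D1:**
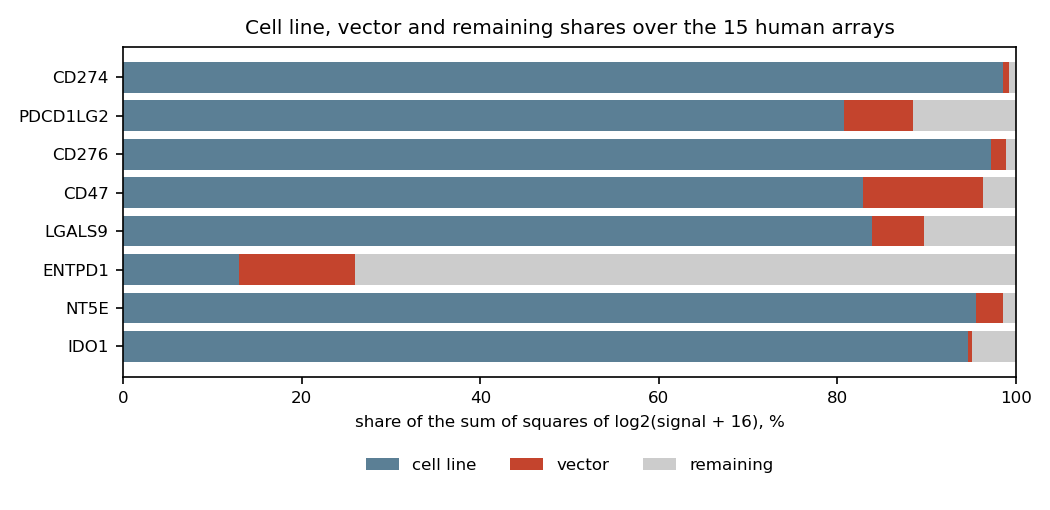
Share (%) of the sum of squares of log2(signal + 16) over the 15 human arrays taken by cell line, by vector and by the remainder, for each gene. The vector segment is widest for CD47 (13.5%), and ENTPD1 is mostly remainder (74.1%).

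With IKKb set against IkB_SR, CD47 and NT5E were higher, 2 of the 7 tested members, where 93 of 15212 genes (0.611%) were called higher and 49 (0.322%) lower by limma with the line as a block. That total of 142 genes became 24 without PC9, 31 without HCC827, 67 without H23 and 69 without the array labelled H23 IkB_SR alone. None of the 7 was called with IKKb set against MiG (0% of all genes called) or with IkB_SR set against MiG (0% called) in limma. At an unadjusted p under 0.05 the first of these held 839 genes, with CD276, CD47 and LGALS9 among them, and the second 675, with CD47 and NT5E among them. The median difference of the 7 members was 0.021 against -0.014 over all genes for IKKb minus MiG, -0.28 against -0.00076 for IkB_SR minus MiG and 0.26 against -0.014 for IKKb minus IkB_SR. The 3 comparisons share arrays in pairs and are not independent of each other.

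**Figure D2:**
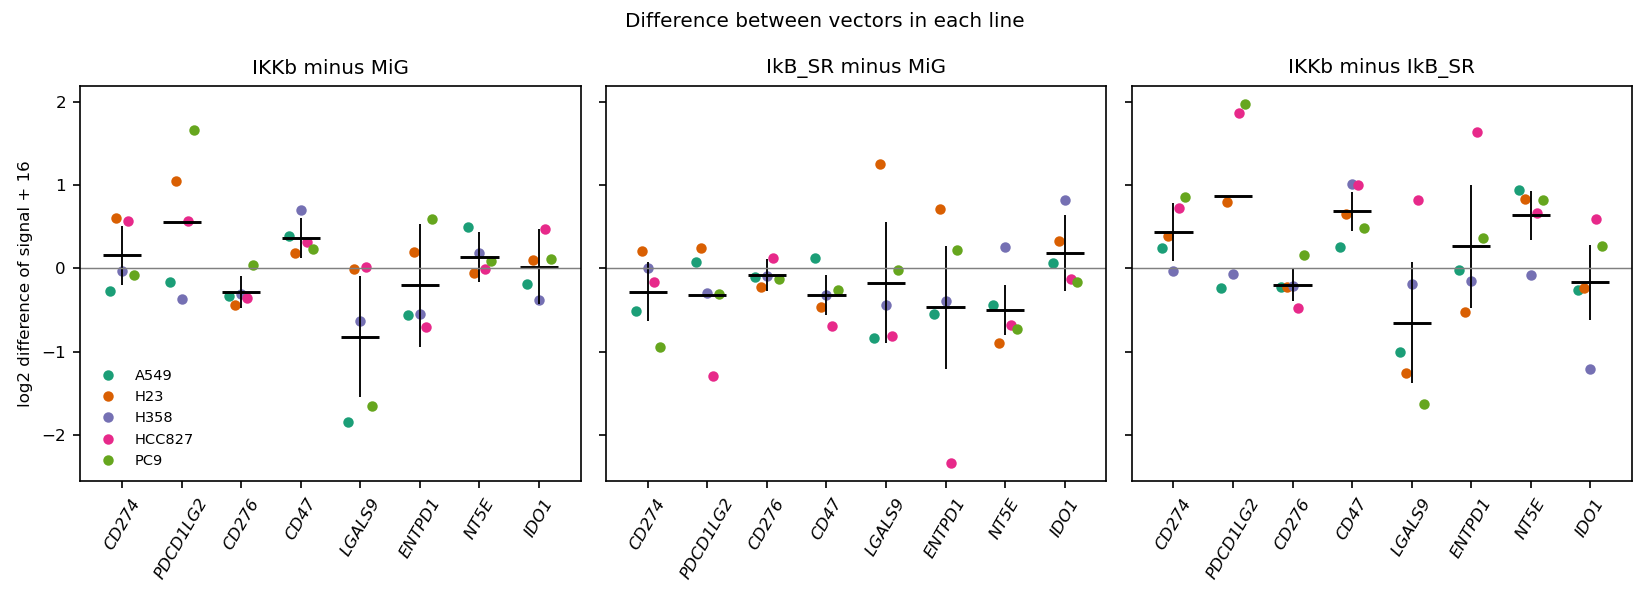
Differences between vectors in log2(signal + 16) for each gene, 1 point per line. Horizontal bars are the mean over 5 lines and vertical bars the 95% confidence interval from limma, absent for PDCD1LG2, which was not tested. CD47 lies above 0 in all 5 lines in the IKKb minus IkB_SR panel, and NT5E in 4 of 5.

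CD274 encodes PD-L1, the ligand that engages PD-1 on T cells. Its signal separated the lines by far more than any vector did. HCC827 was highest, at 3879 with MiG, 3464 with IkB_SR and 5740 with IKKb. H358 followed with 1169.7, 1172 and 1144, nearly the same value under the 3 vectors. PC9 gave 457 with MiG, 231 with IkB_SR and 432 with IKKb. A549, at 86.1, 55.9 and 69.0, and H23, at 35.9, 44.2 and 63.1 in the same order, were the lowest and overlapped each other. No other neighbouring pair in that order overlapped, and the lines differed with an adjusted p of 2.1e-11 (moderated F-test). Line means spanned 6.09 on the log2 scale, the widest span of the 8 genes, each read from its brightest probe set. The other CD274 probe set was dimmer, though also above the percentile on 13 of 15 arrays. HCC827 was again highest there with MiG (240). On that probe set H358, at 130 to 185, overlapped both HCC827 (177 to 336) and PC9 (86.3 to 152).

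CD274 did not pass the test between vectors. IKKb exceeded IkB_SR in 4 of 5 lines by 0.44 ± 0.16 on the log2 scale (SE, 95% interval 0.084 to 0.79, adjusted p = 0.253), with 0.86 in PC9, 0.73 in HCC827, 0.39 in H23, 0.24 in A549 and -0.035 in H358. The difference from MiG was 0.16 ± 0.16 for IKKb (adjusted p = 0.933) and -0.28 ± 0.16 for IkB_SR (adjusted p = 0.995). The other CD274 probe set gave 0.27 for IKKb minus IkB_SR and was higher in 3 of 5 lines. It was lower in A549 (-0.31) and in PC9 (-0.27).

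The RefSeq promoter of CD274 is shown because interferon and NF-kB signalling are known to act on this gene. It is the window of GRCh38.p14 from 250 bases before the start to 50 after it, on the plus strand at chr9:5450292-5450591. Capitals mark the motif matches, which are a STAT site of the form TTCNNNGAA (GAS) at -125 to -117, matched on both strands, and a pair of overlapping interferon regulatory factor matches (GAAA, any 2 bases and GAAA again) on the opposite strand at -208 to -193.
CD274: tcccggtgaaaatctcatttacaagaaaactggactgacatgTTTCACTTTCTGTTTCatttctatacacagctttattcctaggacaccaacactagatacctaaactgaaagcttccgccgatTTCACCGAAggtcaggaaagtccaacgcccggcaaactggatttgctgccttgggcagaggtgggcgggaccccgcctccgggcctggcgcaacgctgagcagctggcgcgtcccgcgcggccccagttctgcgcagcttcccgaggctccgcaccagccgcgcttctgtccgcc
No match to the NF-kB consensus kB motif was found in this window on either strand, which says only that those letters are not there. Of all 35116 RefSeq promoter windows, 7.66% held the GAS form, 3.57% the interferon regulatory factor form and 11.3% the kB motif.

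PDCD1LG2 encodes PD-L2, the second PD-1 ligand, and is the next protein-coding gene after CD274 on chromosome 9. Its signal was 191 with MiG, 68.6 with IkB_SR and 292 with IKKb in HCC827, the line that was also highest for CD274. PC9 gave 6.40 with MiG, 2.08 with IkB_SR and 55.0 with IKKb, the last being its only value above the percentile. The 9 arrays of A549, H23 and H358 lay between 2.76 and 23.5, all below the percentile of their array. On the log2 scale IKKb exceeded IkB_SR by 1.86 in HCC827 and 1.97 in PC9, and by 0.80 in H23 between values that both lay below the percentile. The mean over the 5 lines was 0.87 with an SD of 1.04, without a test. The other probe set was above the percentile on 3 of 15 arrays and gave 0.60 in HCC827 and 0.27 in PC9.

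CD276 encodes B7-H3, a B7-family protein carried by many tumours. Its signal was highest in H358 (2630 to 3248), then in HCC827 (1407 to 1967) and PC9 (1414 to 1584), which overlapped, then in A549 (844 to 1066) and H23 (396 to 545). It was above the percentile on 15 of 15 arrays. With IKKb it was lower than with MiG in 4 of 5 lines, by -0.30 to -0.44 in A549, H23, H358 and HCC827, and 0.038 higher in PC9. The mean of -0.28 ± 0.089 (SE) had an unadjusted p of 0.00774 and an adjusted p of 0.878. IKKb minus IkB_SR was -0.20 ± 0.089 (adjusted p = 0.343), again with PC9 alone on the other side. Of its 2 RefSeq promoter windows, 1 held a kB match, GGGGGCTCCC, at -68 to -59 from its start.

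CD47 encodes the surface protein that binds SIRP alpha on macrophages. It was the only tested member that was higher with IKKb than with either other vector in all 5 lines. The IkB_SR signal was 3623 in A549, 2682 on the array labelled H23 IkB_SR, 6032 in H358, 7402 in HCC827 and 7934 in PC9. The IKKb signal was 4348, 4220, 12190.3, 14886 and 11150 in the same order, and the MiG signal was 3322, 3701, 7498, 11977 and 9469. IKKb was the highest of the 3 vectors in every line, and MiG lay between in every line but A549, where MiG was the lowest. The groups of 5 arrays overlapped because the lines differ (adjusted p = 6.36e-08 between lines, moderated F-test). On the brightest probe set HCC827, PC9 and H358 formed an overlapping upper set and A549 and H23 an overlapping lower set. Other CD47 probe sets did not all keep these sets. With MiG, the next brightest gave 4947 in H358, 3744 in A549 and 2232 in H23. A dimmer probe set, above the percentile on 15 of 15 arrays, gave 786, 872 and 948 in that order.

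IKKb exceeded IkB_SR for CD47 by 0.68 ± 0.11 on the log2 scale (limma's moderated SE, 5 lines). The SD of the 5 line differences was 0.33. The fold was 1.61, with a 95% interval of 1.36 to 1.89 and an adjusted p of 0.0113 in limma. The difference was 1.01 in H358, 1.01 in HCC827, 0.65 in H23, 0.49 in PC9 and 0.26 in A549. CD47 was the only 1 of the 7 tested members higher in all 5 lines, as were 686 of 15212 genes (4.51%). Turning the sign of each line's difference in all combinations, an exact permutation test, gave a two-sided p of 0.0625, the lowest possible with 5 lines. Against MiG, IKKb was higher in 5 of 5 lines by 0.36 ± 0.11 (adjusted p = 0.878) and IkB_SR lower in 4 of 5 by -0.32 ± 0.11 (adjusted p = 0.995). Without the H358 IKKb array the difference between IKKb and IkB_SR was 0.60 (adjusted p = 0.0171), and without the array labelled H23 IkB_SR it was 0.67 (adjusted p = 0.0343). The call was lost without HCC827 (0.60, adjusted p = 0.0735) and without PC9 (0.73, adjusted p = 0.0555).

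The 7 CD47 probe sets, each naming CD47 alone, had mean differences of 0.50 to 0.74 for IKKb minus IkB_SR, and 6 of the 7 were higher in 5 of 5 lines. The exception was a dim probe set, below the percentile on 7 of 15 arrays, which was -0.084 in PC9. When each of the 6 probe sets that do not represent the gene stood for it in the fit, a pair with means of 0.65 and 0.74 kept the call, and the other 4 did not (adjusted p of 0.0879 to 0.370). The brightest CD47 probe set and the one with a mean of 0.65 are of the _s_at kind, which can bind RNA of related genes, and the one with 0.74 is not. Several probe sets of a gene report the same RNA samples and are not replicates.

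**Figure D3:**
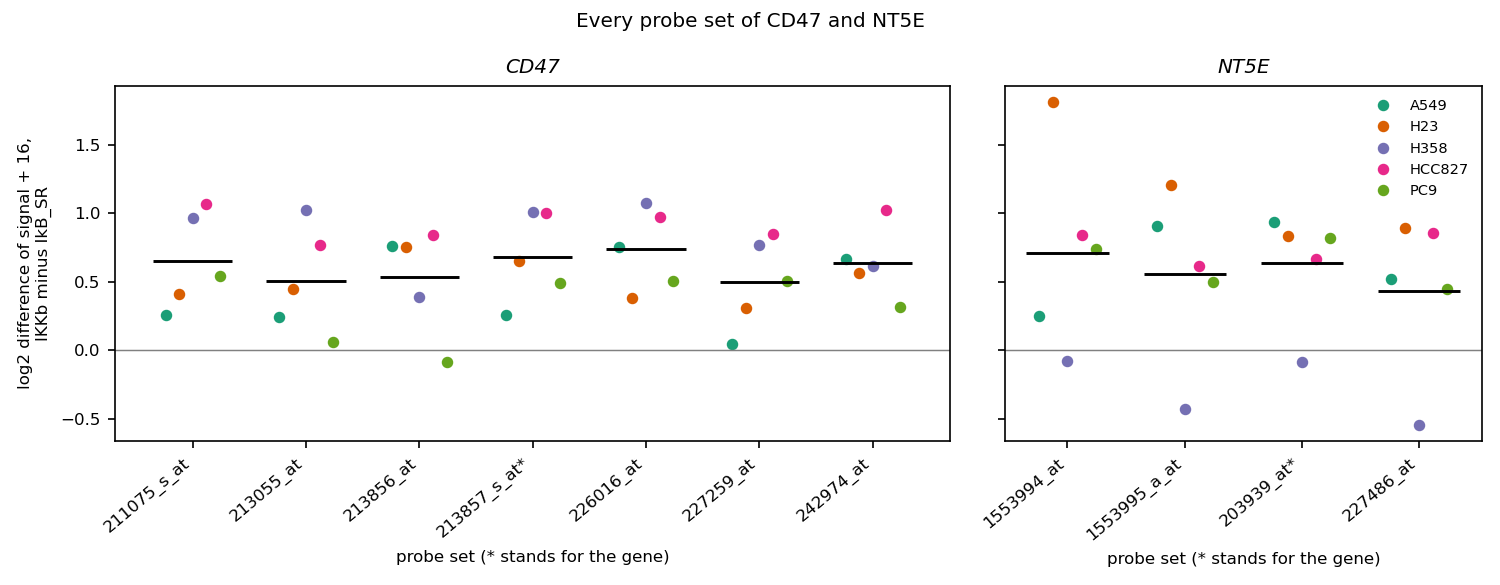
IKKb minus IkB_SR difference in log2(signal + 16) for every probe set of CD47 and NT5E, 1 point per line, with the mean over lines as a bar; the asterisk marks the probe set that stands for the gene. CD47 means lie at 0.50 to 0.74, and for NT5E the H358 point lies below 0 on 4 of 4 probe sets.

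The CD47 promoter, given to set the gene with the clearest response beside CD274, lies on the minus strand at chr3:108090982-108091281 of GRCh38.p14. It held none of the 3 motifs, so no base is in capitals.
CD47: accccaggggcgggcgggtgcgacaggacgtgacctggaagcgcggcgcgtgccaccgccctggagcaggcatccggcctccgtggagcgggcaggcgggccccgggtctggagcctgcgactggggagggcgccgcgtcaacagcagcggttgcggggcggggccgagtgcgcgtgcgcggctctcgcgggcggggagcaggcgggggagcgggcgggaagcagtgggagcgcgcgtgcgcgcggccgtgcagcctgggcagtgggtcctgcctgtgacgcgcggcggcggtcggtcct

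LGALS9 encodes galectin-9, a lectin that binds TIM-3 on T cells. HCC827 gave the highest signals, 738 with MiG, 416 with IkB_SR and 750 with IKKb, followed by H358 at 131 to 212. The other lines overlapped between 17.6 and 112, and 4 of 15 arrays were below the percentile. IKKb minus MiG was -1.84 in A549 (112 to 19.8), -1.65 in PC9 (89.1 to 17.6), -0.63 in H358, -0.0016 in H23 and 0.021 in HCC827. The IKKb values of A549 and PC9, and both values of H23, lay below the percentile of their array, so the sizes of those differences are uncertain. The mean of -0.82 ± 0.34 did not pass (adjusted p = 0.878), and its 95% interval ran from -1.54 to -0.096. IKKb minus IkB_SR was -0.65 ± 0.34 (adjusted p = 0.409), with HCC827 at 0.83 against values of -0.19 to -1.62 in the other 4 lines. The only LGALS9 probe set is of the _s_at kind, which can bind RNA of related genes.

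ENTPD1 encodes CD39, the enzyme that takes ATP to AMP at the cell surface. Its signal was dim, between 6.27 and 96.4, and below the percentile on 4 of 15 arrays. No line was set apart, since the ranges of all neighbouring lines overlapped (adjusted p = 0.768 between lines). HCC827 held the widest spread, 96.4 with MiG, 6.27 with IkB_SR and 53.3 with IKKb. IKKb minus IkB_SR was 0.26 ± 0.34 (adjusted p = 0.792), with a 95% interval of -0.47 to 1.0. The other 3 ENTPD1 probe sets were below the percentile on 11 to 15 of 15 arrays.

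NT5E encodes CD73, which completes the pathway by turning AMP into adenosine. On the brightest probe set the lines were ordered H358, HCC827, PC9, A549 and H23, with overlap only between PC9 and A549 (adjusted p = 1.79e-10 between lines, moderated F-test). The IkB_SR signal was 12299 in H358, 5771 in HCC827, 2294 in PC9, 1411 in A549 and 357 on the array labelled H23 IkB_SR. The IKKb signal was 11627, 9163, 4061, 2715 and 650.0 in that order, and the MiG signal was 10254, 9211, 3803, 1922 and 677. In 4 lines IkB_SR was the lowest of the 3 vectors, while in H358, the line with the most NT5E, it was the highest. The other NT5E probe sets, each above the percentile on 15 of 15 arrays, kept H358 highest and H23 lowest with MiG. They placed PC9 above HCC827, at 1812 against 1548, 1067 against 937 and 260 against 109.

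IKKb exceeded IkB_SR for NT5E by 0.64 ± 0.14 (limma's moderated SE, 5 lines). The SD of the 5 line differences was 0.41. The fold was 1.55, with a 95% interval of 1.26 to 1.91 and an adjusted p of 0.0458 in limma. The difference was 0.94 in A549, 0.84 in H23, 0.82 in PC9, 0.67 in HCC827 and -0.081 in H358. The exact permutation test on the signs of the lines gave a two-sided p of 0.125 for NT5E. Most of it lay between IkB_SR and MiG, at -0.49 ± 0.14 (adjusted p = 0.962), and less between IKKb and MiG, at 0.14 ± 0.14 (adjusted p = 0.929); these sizes share the MiG arrays and their difference was not tested. The 4 NT5E probe sets gave 0.44 to 0.71 for IKKb minus IkB_SR, and H358 was below 0 on each. None of the probe sets other than the brightest kept the call when it stood for the gene in the fit. The call stood close to the threshold. It was lost without the array labelled H23 IkB_SR (0.56, adjusted p = 0.125), without A549 (0.56, adjusted p = 0.126), without H23 (0.59, adjusted p = 0.158), without HCC827 (0.63, adjusted p = 0.187) and without PC9 (0.59, adjusted p = 0.216). It was kept without H358 (0.81, adjusted p = 0.00184) and without the H358 IKKb array (0.72, adjusted p = 0.0337). With H358 left out, IkB_SR minus MiG also passed for NT5E (-0.68, adjusted p = 0.0163), 1 of 8 genes called in that fit.

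The NT5E promoter is given as that of the other called member and lies on the plus strand at chr6:85449833-85450132 of GRCh38.p14. It also held none of the 3 motifs.
NT5E: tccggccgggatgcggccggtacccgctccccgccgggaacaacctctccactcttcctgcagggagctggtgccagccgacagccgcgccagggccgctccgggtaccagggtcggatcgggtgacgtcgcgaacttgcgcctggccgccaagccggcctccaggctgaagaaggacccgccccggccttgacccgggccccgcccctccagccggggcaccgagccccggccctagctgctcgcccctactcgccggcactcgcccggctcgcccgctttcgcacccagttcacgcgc
Among the remaining members with an entry, the LGALS9 window held an interferon regulatory factor match and the 5 ENTPD1 windows held no match.

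IDO1 encodes indoleamine 2,3-dioxygenase, the intracellular enzyme that opens the breakdown of tryptophan. H358 was the only line with a high signal, 634 with MiG, 1136 with IkB_SR and 482 with IKKb. HCC827 gave 128, 116 and 184 in that order and did not overlap H23, while H23, PC9 and A549 lay between 65.8 and 103 and overlapped. IKKb minus IkB_SR was -1.21 in H358, between -0.25 and -0.23 in A549 and H23, and 0.60 and 0.27 in HCC827 and PC9. The mean was -0.17 ± 0.21 (adjusted p = 0.783), and it turned to 0.014 without the H358 IKKb array. IDO1 did not pass against MiG either, at 0.021 ± 0.21 for IKKb and 0.19 ± 0.21 for IkB_SR (adjusted p of 0.993 and 0.995).

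**Figure D4:**
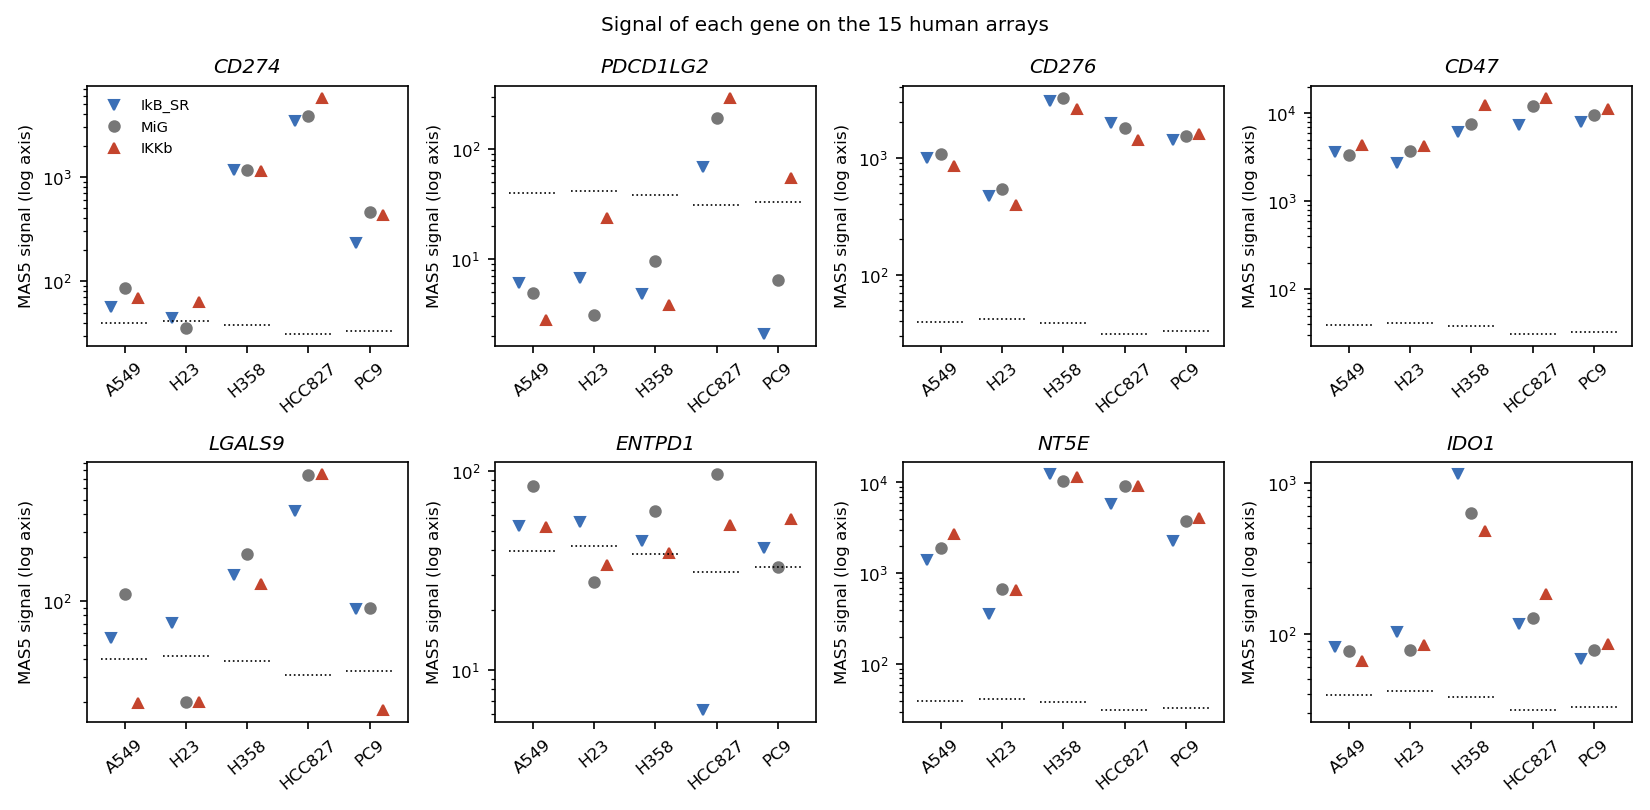
MAS5 signal of each gene on the 15 human arrays (log axis, a separate scale per gene), by line and vector; each point is 1 array, and the dotted segments are the mean 40th percentile of the line's arrays. CD47 with IKKb is the highest point in every line, and PDCD1LG2 lies above the dotted segments in HCC827 and on the IKKb array of PC9 only.

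Genes around the members in their pathways gave few calls. Between IKKb and IkB_SR, limma called 0 of 13 other checkpoint ligands, 0 of 7 genes of the CD47 axis (such as SIRPA and the enzymes that modify CD47), 0 of 12 genes of extracellular ATP and adenosine, 0 of 10 genes of tryptophan use and 0 of 6 other galectins and partners. At an unadjusted p under 0.05 the same lists held 4, 5, 1, 3 and 1 genes in that order, beside 2160 of all 15212 genes (14.2%). Their medians ran from -0.11 for adenosine to 0.19 for the CD47 axis. IKKb against MiG called 0 genes in each of these lists, with 5 of 10 tryptophan genes and at most 2 of any other list at an unadjusted p under 0.05 (5.52% of all genes). IkB_SR against MiG also called 0, with 0 tryptophan genes and at most 2 of any other list at that level (4.44% of all genes). Of 10 genes of interferon signalling and PD-L1 stabilisation, 2 were higher with IKKb than with IkB_SR. IFNGR1, a chain of the interferon gamma receptor, differed by 0.62 ± 0.12 (adjusted p = 0.0277, 5 of 5 lines), and IRF1, a transcription factor that acts on the CD274 gene, by 0.70 ± 0.13 (adjusted p = 0.0277, 5 of 5 lines). The median over those 10 genes was 0.23, against -0.014 over all genes tested.

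NF-kB targets in a reference list differed more widely. Of 11 tested, 8 were higher with IKKb than with IkB_SR, among them RELB by 2.16 ± 0.23 (adjusted p = 0.00079), TNFAIP3 by 3.39 ± 0.41 (adjusted p = 0.00143) and ICAM1 by 2.26 ± 0.28 (adjusted p = 0.00207), each in 5 of 5 lines. NFKBIA, which the super-repressor vector itself carries, was -0.70 ± 0.39 (adjusted p = 0.438). The differences of CD47 (0.68) and NT5E (0.64) were smaller than those of RELB, TNFAIP3 and ICAM1. With IkB_SR set against MiG, RELB and TNFAIP3 were lower in 5 of 5 lines, the array labelled H23 IkB_SR included, and ICAM1 in 4 of 5. The label of that array was not tested. Of 6 leukocyte markers tested, with a median of -0.096, only ITGAM passed, higher by 1.72 ± 0.34 (adjusted p = 0.0327, 5 of 5 lines). CD14, named after its values were seen, was -1.04 ± 0.32 (adjusted p = 0.164), lower in 5 of 5 lines. The summed signal of the 10 measured leukocyte markers ran from 261 to 1001 over the 15 arrays. PTPRC was at 2.77 to 37.3 on those arrays. The part of leukocyte RNA in the member results was not tested. None of 9 epithelial and none of 6 fibroblast or endothelial markers tested passed in the same comparison.

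The genes whose signal followed each member most closely over the 15 arrays, after the mean of each line was taken out, were ranked by Pearson's r, which describes arrays that share lines and vectors and carries no test. For CD47 they were TRIM16 (r = 0.947) and TRAF3 (r = 0.945), and for NT5E they were PSMB9 (r = 0.939) and TPBG (r = 0.923). CD274 was nearest to GALNT14 (r = 0.936) and CDK8 (r = 0.931), and CD276 to BLTP2 (r = 0.917) and TDRD3 (r = 0.911). For LGALS9 they were FCSK (r = 0.960) and TBC1D21 (r = 0.926), for ENTPD1 GMPR (r = 0.911) and REC8 (r = 0.890), and for IDO1 OSBP (r = 0.953) and PFKM (r = 0.935). Of these 14 genes, TRIM16, TRAF3 and PSMB9 were themselves called higher with IKKb than with IkB_SR, as were 93 of all 15212 genes (0.611%). They were picked for likeness to CD47 and NT5E on the same arrays, which favours such calls, so the calls are no separate evidence.

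In LLC, activated IKK beta changed none of the 8 mouse genes past the threshold. Without a block limma called 0 of 12549 genes (0%), with 238 genes and none of the 8 at an unadjusted p under 0.05. With the replicate number as a block it called 223 genes (1.78%), again with 0 of the 8. Leaving out 1 array without a block gave 44 genes without MiG replicate 1, 138 without MiG replicate 2, 5 without IKKb replicate 1 and 10 without IKKb replicate 2, with none of the 8 among them. The 2 arrays numbered 1 and the 2 numbered 2 stood apart in the Dap spike-in control (1679 and 1567 against 28.7 and 19.4), so the blocked values are given as well. The labels do not say that the arrays came from separate cultures, so the p-values may hold no spread between cultures. They rest on the spread between these arrays and, through limma, on that of other genes of like intensity. With the block, most of the weight came from those other genes. The median difference of the 8 genes was -0.058, against 0.0041 over all genes.

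Cd47 was well above the percentile with both vectors, at 5847 and 4275 with MiG and 5760 and 5566 with IKKb, and the groups overlapped (0.18 ± 0.22, adjusted p = 0.9997, or 0.840 with the block). Nt5e was 45.1 and 40.5 with MiG and 60.5 and 69.9 with IKKb, without overlap (0.46 ± 0.35, adjusted p = 0.9997, or 0.751 with the block). Cd276 was 698 and 765 with MiG and 585 and 694 with IKKb, also without overlap (-0.19 ± 0.20, adjusted p = 0.9997, or 0.662 with the block). With Ido1, which also lay lower, 3 of the 8 genes did not overlap, 1 higher and 2 lower, where 1370 of 12549 genes (10.9%) lay higher and 1400 (11.2%) lower on both IKKb arrays. None of the 3 passed the test.

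Cd274 was dim, at 43.4 and 75.6 with MiG and 60.1 and 87.4 with IKKb, and Pdcd1lg2 lay around the percentile, at 36.3 and 49.2 with MiG and 16.2 and 37.5 with IKKb. Lgals9 was 633 and 274 with MiG and 468 and 229 with IKKb, lower within each replicate number, with an unadjusted p of 0.0437 and an adjusted p of 0.444 under the block. Entpd1 was 50.9 and 37.5 against 51.0 and 37.3. Ido1 was 41.2 and 34.4 with MiG and 33.1 and 34.2 with IKKb, close to the percentile of 30.1 to 39.6 and without overlap. Of 9 epithelial markers, Krt8, Krt18 and Elf3 were above the percentile on all 4 arrays, and Cdh1 was below it on 4 of 4. Of 10 leukocyte markers, Ms4a1, Cd14, Cd68 and Csf1r were above it on all 4 arrays, and Ptprc was below it on 4 of 4. Of 10 fibroblast and endothelial markers, Col1a2, Col3a1, Pdgfrb and Kdr were above it on all 4 arrays, with a summed signal over the list of 10331 to 20452. The part of such cells in the LLC values was not tested.

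NF-kB targets and interferon genes set the LLC members beside the wider response. With the block, 7 of 10 tested NF-kB targets were higher, among them Relb by 1.85 ± 0.20 (adjusted p = 9.71e-08) and Tnfaip3 by 1.41 ± 0.20 (adjusted p = 2.09e-05), and without it 0 of 10, though 7 of 10 had an unadjusted p under 0.05. Ifngr2, the other interferon gamma receptor chain, was higher by 0.54 ± 0.15 with the block (adjusted p = 0.0422), and the epithelial marker Krt19 was lower, at -1.52 ± 0.40 (adjusted p = 0.042).

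**Figure D5:**
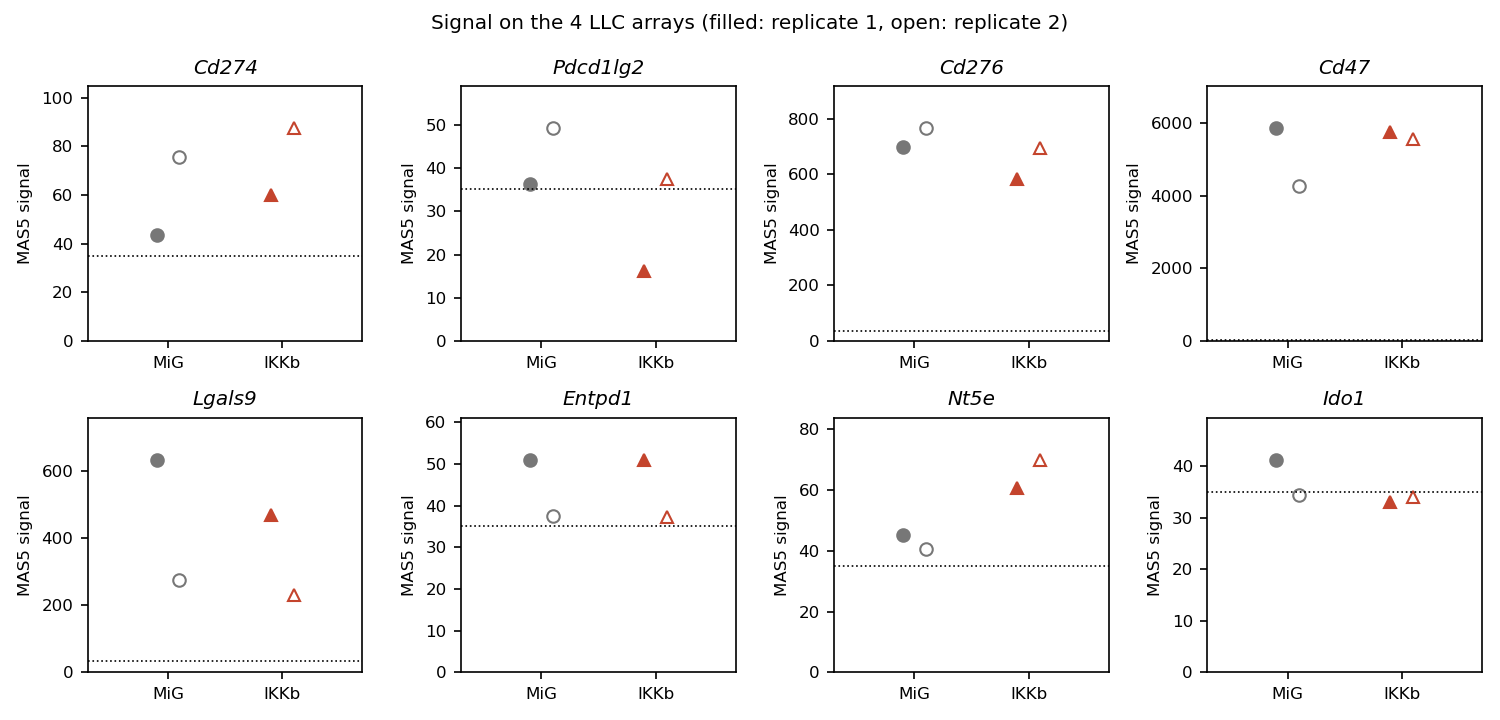
MAS5 signal (linear axis from 0) of each mouse gene on the 4 LLC arrays; filled symbols are replicate 1, open symbols replicate 2, and the dotted line is the mean 40th percentile of the 4 arrays. Nt5e is higher and Cd276 and Ido1 are lower on both IKKb arrays than on both MiG arrays, and the other 5 genes overlap.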

How the data were processed

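RNA from 15 human and 4 mouse arrays was analysed from the deposited series tables, whose values are linear MAS5 intensity (GCOS 1.4, per the submitters' processing notes), scaled by the authors to a trimmed mean of 500 with 2% trimmed at each end, as the values show. Further steps are not given in the sources used here, and precision is limited by the number of arrays. The platform annotation named 1 gene for 41097 of 54675 human probe sets, several for 1801 and none for 11777; for mouse it named 1 for 34958 of 45101, several for 932 and none for 9211. Computed here were log2(intensity + 16), a filter at the 40th percentile, and moderated tests in limma 3.58.1 (R 4.3.3; lmFit, eBayes with trend, two-sided, Benjamini-Hochberg adjustment over all genes, called under 0.05). The human fit used 15 arrays with the line as a block, and the LLC fit had none. Members, pathway lists and the rule for named genes (all members, list genes past the threshold, 4 NF-kB targets and the 2 genes most alike) were chosen with earlier results of these data known. Alternatives were other pseudocounts, scalings, filters, probe sets, priors, blocks and left-out arrays; the analysis without the array labelled H23 IkB_SR was chosen after seeing the data. The code was tested on simulated data. Promoters come from RefSeq (GRCh38.p14), with entries for 6 of 8 members. Figures used matplotlib 3.10.9.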

Additional observations from a re-analysis of the deposited data

Results flagged for a closer look

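In 3 of 32 groups of 5 lines a single line stood apart from the others by more than Dixon's critical value of 0.71; chance gives about 1 such group in 20. NT5E differed by -0.081 between IKKb and IkB_SR in H358, where the other 4 lines gave 0.67 to 0.94. PDCD1LG2 had a log2(signal + 16) of 7.70 on the MiG array of HCC827, where the other 4 lines gave 4.26 to 4.67. IDO1 had 9.34 on the MiG array of H358, where the other 4 lines gave 6.54 to 7.17.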

How the results depend on the processing

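Of 706 values recomputed for the members, 659 were counted as the same, 25 lost their call, 1 gained it and 21 changed sign. The same meant an unchanged direction and side of the threshold. For the F-test between lines it meant the side alone, and for untested PDCD1LG2 a shift below the SD over lines. The total includes values that were never called. For IKKb against IkB_SR, CD47 lost its call in 9 of 24 alternatives and NT5E in 16 of 21. The cause of these changes was not tested. The 2 called members for IKKb against IkB_SR became 1 with a pseudocount of 1, quantile normalisation, no filter, the mean of probe sets, a robust prior or without the array labelled H23 IkB_SR, and 0 without the intensity trend, without the replicate block (line) or with arrays of the compared vectors only; leaving out 1 line gave 0 to 2. The 142 genes called became 86 with no filter, 42 with the mean of probe sets, 21 without the trend, 69 without the array labelled H23 IkB_SR, 0 without the replicate block and 15 with the compared vectors only, and 24 to 129 when 1 line was left out. For IKKb against MiG the mean of probe sets called 1 gene in place of 0. For IkB_SR against MiG the compared vectors only called 1, and leaving out 1 line called 0 to 8 genes and 0 to 1 members. CD47 also lost its call without the trend (adjusted p = 0.0785) and with the compared vectors only (adjusted p = 0.143), and NT5E in 16 alternatives, with an adjusted p as low as 0.0518 under a robust prior; both had an adjusted p of 0.99996 without the replicate block.

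Signs turned for uncalled values. With another, dimmer probe set, CD276 became 0.067 (IKKb against MiG), 0.34 (the IkB_SR comparison with MiG) and 0.20 (the direct comparison of both), ENTPD1 0.41 (IKKb against MiG) and -0.047 (IKKb against IkB_SR), and Nt5e in LLC -0.13. CD276 became 0.0012 with the mean of probe sets (IkB_SR against MiG), and IDO1 0.014 (IKKb against IkB_SR) without the H358 IKKb array. Leaving out 1 line gave IDO1 -0.091 to 0.12 (IKKb against MiG) and -0.36 to 0.094 (IKKb against IkB_SR), and ENTPD1 -0.76 to 0.0013 (IkB_SR against MiG) and -0.079 to 0.46 (IKKb against IkB_SR). In LLC, Entpd1 became 0.025 with quantile normalisation and 0.0036 with median centring. Leaving out 1 LLC array, with the lone array assumed to vary like the other group, gave Cd274 -0.046 to 0.58, Cd47 -0.046 to 0.40, Lgals9 -0.91 to 0.25 and Entpd1 -0.17 to 0.16. The LLC genes called became 2 with a pseudocount of 64, 223 with the replicate block and 5 to 138 with 1 array left out, and the members called stayed at 0. The deviations of the LLC arrays with the same number correlated at 0.53, and the labels do not say that the numbers pair them. Signals near the 40th percentile, as for PDCD1LG2 and ENTPD1, limit what could be compared.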
